A study of Homo sapiens with 66 samples.

Results

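The genes described here are 9 transcriptional targets of Wnt signaling: ASCL2, AXIN2, LGR5, RNF43, ZNRF3, NKD1, SP5, TCF7 and LEF1. They were taken by symbol and matched to the Ensembl identifiers of the count files, which list 58051 genes, and all 9 were among the 17812 genes expressed highly enough to be tested. RNA-seq of total RNA depleted of ribosomal RNA was done on DLD-1 cells, an established colorectal cancer line in which the tumor suppressor APC is mutated. In the study, parts of the nuclear pore or of the mRNA export machinery were fused to an auxin-inducible degron (AID), so that 1 mM auxin removes the protein, and the question for each line was which transcripts change after the loss. Each auxin group was therefore compared with untreated cells of its own line.

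The data comprised 66 libraries in 22 groups of 3. The tagged lines carried, by the labels, AID-NeonGreen-TPR (AID-TPR cells), NUP153-NeonGreen-AID (NUP153-AID cells), NUP50-NeonGreen-AID (NUP50-AID cells), GAP1-NeonGreen-AID (RANGAP1-AID cells), AID-FLAG-NXF1 (AID-NXF1 cells) and AID-HA-GANP1 (AID-GANP cells). Both alleles were tagged and each line was grown from a clone, and the tagged lines share the plant receptor TIR1, inserted at the RCC1 locus, through which auxin acts. The parental DLD-1 cells, whose genotype is labelled original, were the control for auxin itself. Auxin was given for 2 h to AID-TPR, NUP153-AID, RANGAP1-AID, AID-NXF1 and DLD-1 cells and for 3 h to NUP50-AID and AID-GANP cells. Later libraries were taken at 8 h for AID-TPR, NUP153-AID and RANGAP1-AID cells and at 9 h for NUP50-AID cells. AID-TPR libraries come in a plain set of labels and in a set labelled old, which alone has the 8 h time point and is called old AID-TPR here. AID-TPR cells were also given Actinomycin D (ActD), an inhibitor of transcription, for 2 h, alone or with auxin, and these were compared with untreated old AID-TPR cells and with each other.

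Library totals ranged from 18943661 to 55411411 counts, with a median of 32285399. In 24 libraries, those from plain AID-TPR, AID-NXF1, AID-GANP and parental cells, there are no counts on mitochondrial genes, and these were thus counted differently from the rest, so levels set across lines are descriptions only. All 9 epithelial markers examined (EPCAM, CDH1, KRT8, KRT18, KRT19, KRT20, CDX2, VIL1 and CDH17) passed the filter on low counts, and their summed level lay between 5720 and 16090 CPM (counts per 1000000 counts of the library). Marker sums and the filter on low counts use the library totals as they are. All other CPM values are on library totals scaled by the TMM method of edgeR over the 66 libraries. The sum over 7 markers of mesenchymal, blood and endothelial cells was at most 3.23 CPM, COL1A2 was at 0 in 38 libraries and CDH5 at 0 in 44. The mRNA of the tagged genes was called changed in 0 comparisons, and the degron acts on the protein.

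Wnt ligands bind Frizzled and LRP receptors and stop the destruction complex, which contains APC and AXIN proteins, from marking β-catenin for decay. β-catenin then enters the nucleus and activates genes bound by TCF and LEF factors. Loss of APC keeps this branch on in most colorectal cancers, so that Wnt target genes are read out without ligand. Of the 9 targets, ASCL2 is a basic helix-loop-helix factor of intestinal stem cells, and LGR5, which marks the same cells, is a receptor for R-spondins. AXIN2 is a scaffold of the destruction complex, NKD1 binds Dishevelled, RNF43 and ZNRF3 are ubiquitin ligases that remove Frizzled receptors from the cell surface, and SP5 is a repressor of the Sp family. These 5 act as negative feedback. TCF7 and LEF1 belong to the TCF/LEF family that β-catenin works through.

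The members differ in gene structure. ASCL2 (ENSG00000183734) is a short gene at chr11:2268498-2270588 of GRCh38, minus strand, with 2 exons in its canonical transcript, and SP5 at chr2:170715337-170718078, plus strand, also has 2 exons. The other 7 have between 9 and 18 exons: AXIN2 at chr17:65528563-65561648 (11 exons), LGR5 at chr12:71439798-71586310 (18), RNF43 at chr17:58353676-58417595 (10), ZNRF3 at chr22:28883572-29057488 (9), NKD1 at chr16:50548396-50649249 (10), TCF7 at chr5:134114681-134151865 (10) and LEF1 at chr4:108047545-108168956 (12). ASCL2 shared no exonic base with another gene. AXIN2 shared 1316 exonic bases with ENSG00000266076 on its own strand, and RNF43, LEF1 and TCF7 overlapped TSPOAP1-AS1, LEF1-AS1 and SKP1 on the opposite strand. Whether reads were assigned by strand is not given in the sources used here, so reads from these pairs cannot be told apart.

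TCF and LEF proteins bind DNA through a short core that reads CTTTGAA or CTTTGAT or CTTTGTA or CTTTGTT on one of its strands. The 250 bases before the transcription start were searched for these letters on both strands in the RefSeq promoter sequences (GRCh38.p14), which had entries for 4 of the 9 members (SP5, LEF1, TCF7 and RNF43). SP5 had 3 matches, which are printed with 8 bases on each side because they hold the letters of that core. The core is in capitals, and each line is the plus strand of chromosome 2, at chr2:170715181-170715203, chr2:170715220-170715242 and chr2:170715245-170715267.
SP5 site 1: tttgtggaTTCAAAGgatttgct
SP5 site 2: ccgctattCTTTGATgattgggt
SP5 site 3: cggcaaacTTCAAAGccataaat
The first and the last read CTTTGAA on the minus strand, and the middle one reads CTTTGAT on the plus strand. Of 35116 promoters searched in the same way, 43 (0.122%) held 3 or more matches and 4199 (12.0%) held at least 1. The SP5 window had 45.6% G and C, against a median of 58.0% over these promoters, and the part of this was not tested. TCF7 held 1 match in 1 of its 2 promoters, at chr5:134123560-134123582, a CTTTGTT on the minus strand.
TCF7 site: cccactggAACAAAGgaggagag
The promoters of LEF1 and RNF43 had no match in this window. A match is a description of letters and not a bound site.

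In untreated parental cells AXIN2 was the highest of the 9 genes per length. Its level was 91.0 CPM per kb of exon, against 29.1 for ASCL2, 16.2 for RNF43, 9.82 for ZNRF3, 9.76 for LEF1, 6.63 for LGR5, 5.67 for SP5, 1.44 for TCF7 and 1.00 for NKD1, as means of 3 libraries. Reading each gene against itself, in CPM and without length, the untreated lines were unlike each other. ASCL2 was at 145, 154 and 191 CPM in old AID-TPR cells and at 17, 22.3 and 24.7 CPM in AID-NXF1 cells, the highest and the lowest of the lines. Between these lay NUP50-AID cells (107 CPM ± 15.2, SD, n = 3), NUP153-AID cells (93.1 ± 6.68), RANGAP1-AID cells (82.1 ± 9.82), plain AID-TPR cells (80.5 ± 5.28), AID-GANP cells (44.4 ± 7.96) and DLD-1 cells (43.2 ± 11.9). Of neighbours in that order, NUP50-AID and NUP153-AID, NUP153-AID and RANGAP1-AID, RANGAP1-AID and plain AID-TPR, and AID-GANP and DLD-1 overlapped, and the other neighbours did not.

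LGR5 split the lines most. It was at 25.9, 37.6 and 40.3 CPM in untreated DLD-1 cells and at 0.473, 0.852 and 1.04 CPM in untreated plain AID-TPR cells, where the libraries held 16, 25 and 37 reads. Means were 31.2 CPM ± 5.02 (SD, n = 3) in NUP50-AID, 26.0 ± 1.89 in AID-GANP, 25.2 ± 1.19 in RANGAP1-AID and 19.8 ± 1.88 in AID-NXF1 cells, but 2.62 ± 0.564 in old AID-TPR and 1.91 ± 0.657 in NUP153-AID cells. The AID-TPR and NUP153-AID lines thus stood far below the parental line, and no library of theirs reached the lowest library of the other lines. Each line is a clone, and the clone and the tag cannot be told apart. LEF1 differed less across the lines than LGR5, with untreated means from 30.8 CPM in NUP153-AID to 60.4 CPM in old AID-TPR cells. So did RNF43, from 103 CPM in DLD-1 to 173 CPM in old AID-TPR cells, and ZNRF3, from 56.7 CPM in AID-NXF1 to 100 CPM in old AID-TPR cells.

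**Figure D1:**
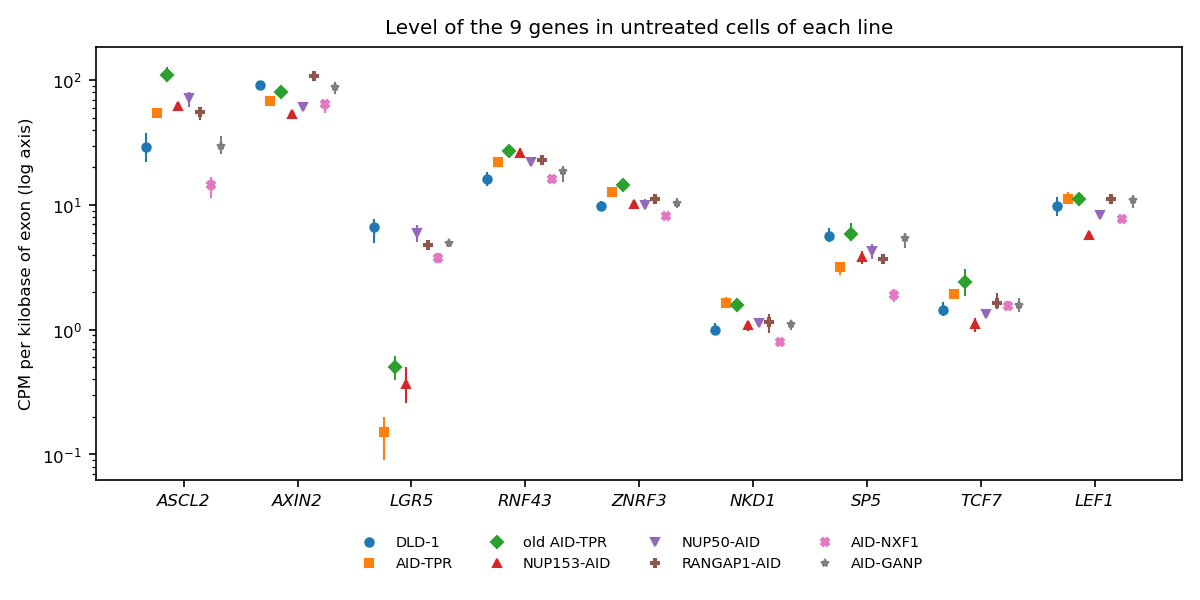
Level of each of the 9 genes in the untreated cells of every line, in CPM per kb of exon on a log axis, where the marker is the mean of 3 libraries and the line runs from the lowest to the highest. LGR5 falls into a high and a low set of lines, with AID-TPR, old AID-TPR and NUP153-AID cells in the low one, while LEF1, RNF43 and ZNRF3 span narrower ranges.

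Loss of TPR, the protein of the nuclear basket filaments, lowered ASCL2 in the old set of labels. Untreated old AID-TPR cells held 154, 145 and 191 CPM of ASCL2. After 2 h of auxin the libraries held 67.2, 43.9 and 86.3 CPM, and after 8 h 33.3, 71.5 and 58.7 CPM. Every auxin library of that set was below every untreated one, which also held for 11.4% of all tested genes at 2 h and 15.1% at 8 h. The log2 fold change was -1.31 ± 0.227 (SE) at 2 h, with a 95% interval from -1.82 to -0.81 and an adjusted p of 0.0451 (edgeR quasi-likelihood test), and -1.58 ± 0.255 at 8 h, from -2.15 to -1.01 (adjusted p = 0.0188). A gene was called where the adjusted p was under 0.05 and the fold at least 1.3 or at most 0.7. ASCL2 was the 1 member called at each time, and the share of all tested genes called lower was 0.309% at 2 h and 2.36% at 8 h. The call at 2 h was lost without replicate old1 of the auxin group (log2 fold change -1.32) or without any 1 of the untreated libraries (-1.18 to -1.38), and the call at 8 h was lost without auxin replicate old3 (-1.62) or any 1 untreated library (-1.47 to -1.65). Adjusted p over the other settings ran from 3.64e-12 to 0.0533 at 2 h and from 6.98e-10 to 0.0173 at 8 h for edgeR and DESeq2. Set directly against the 2 h libraries, the 8 h libraries gave no difference past the threshold in any of the 9 genes, with 0 members at an unadjusted p under 0.05 and 0 by DESeq2, and over all genes 0 passed, or 0% (48 at an unadjusted p under 0.05, 0 by DESeq2). For ASCL2 that difference was -0.28 on the log2 scale, from -0.96 to 0.41.

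In plain AID-TPR cells ASCL2 was 75.1, 80.7 and 85.6 CPM untreated and 56.4, 62.3 and 64.4 CPM after 2 h of auxin. The groups did not overlap, as for 9.27% of all tested genes in that direction, and the change was smaller than in the old set. The log2 fold change was -0.40 ± 0.077 (-0.57 to -0.23; adjusted p = 0.0519), and the fold of 0.757 was short of the 0.7 asked for. Replicates with 1 number deviated together here, and with the replicate number as a block the adjusted p was 2.67e-08 and the fold still short. No member was called in this comparison, where 0.477% of all tested genes were (3 members had an unadjusted p under 0.05, and DESeq2 called 0). The 2 label sets were counted differently, and the difference between their ASCL2 values was not tested.

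The feedback ligase RNF43 was lower in the same libraries without passing the test. It went from 172, 168 and 179 CPM untreated to 138, 120 and 145 CPM at 2 h and 141, 128 and 140 CPM at 8 h in old AID-TPR cells, a log2 fold change of -0.37 (adjusted p = 0.296) and -0.36 (adjusted p = 0.0673). SP5 was 10.9, 10.7 and 14.9 CPM untreated, 7.60, 5.60 and 9.65 CPM at 2 h and 4.49, 8.07 and 6.84 CPM at 8 h, with log2 fold changes of -0.68 (adjusted p = 0.309) and -0.92 (adjusted p = 0.0710). At 8 h SP5 was called lower scaled by library size alone (-1.05), without the filter on low counts (-0.92), by DESeq2 (-0.92), with the replicate block (-0.94), in one fit over 60 libraries (-0.92) and without auxin replicate old2 (-1.14), but not in the other 6 settings. Same-numbered replicates of the old set were not shown to be paired. The auxin libraries of both genes lay below the untreated ones, as did those of 11.4% of all tested genes at 2 h and 15.1% at 8 h. In plain AID-TPR cells SP5 was 8.41, 4.75 and 8.36 CPM after auxin against 7.05, 5.73 and 7.17 CPM, and these overlapped. AXIN2 and ZNRF3 had values of the opposite sign at 8 h, 0.42 (adjusted p = 0.146) and 0.41 (adjusted p = 0.125). LEF1 was at -0.01, -0.01 and 0.00 in the 3 comparisons of TPR loss.

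**Figure D2:**
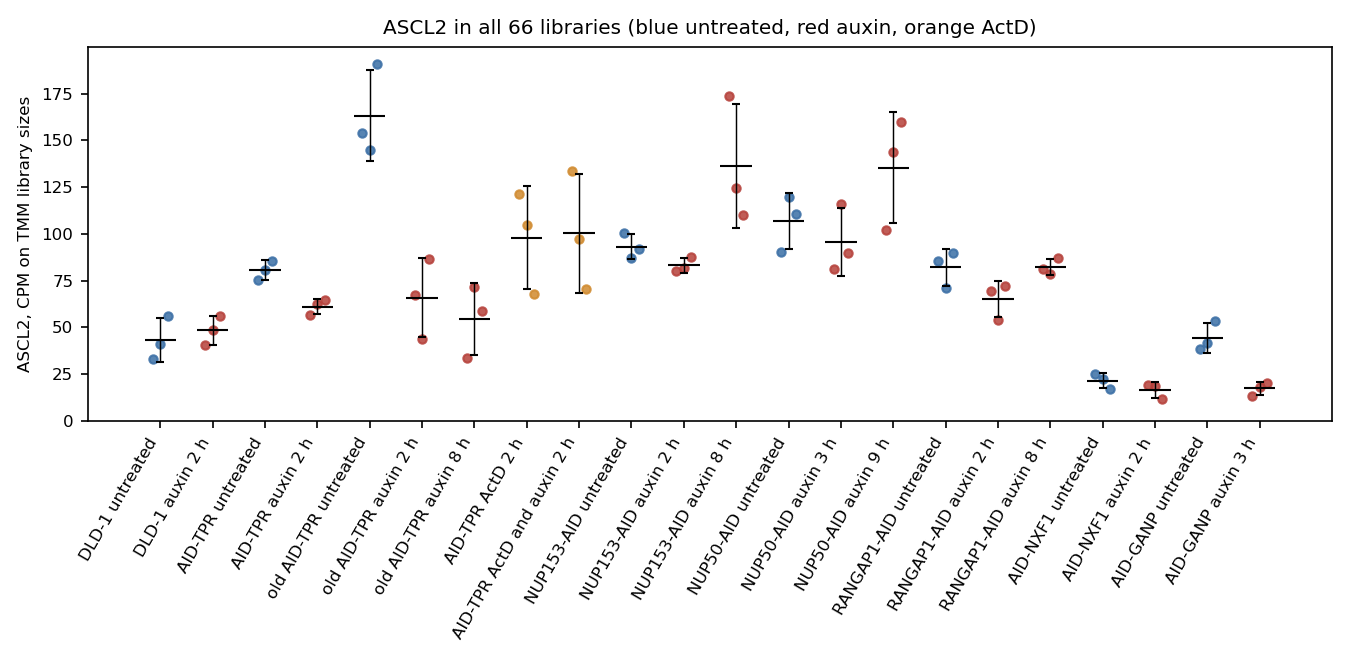
ASCL2 in CPM in each of the 66 libraries, by line and treatment, with 1 point per library, a bar at the group mean and a whisker of 1 SD to each side. The auxin libraries of old AID-TPR, plain AID-TPR and AID-GANP cells sit below all untreated libraries of their own line and label set. Those of DLD-1 cells overlap their control. Of all tested genes, 11.4% lay lower with no overlap in the old set at 2 h and 15.1% at 8 h. It was 9.27% in the plain set and 24% after GANP loss.

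Loss of GANP, the scaffold of the TREX-2 export complex of the nuclear basket, changed 4 of the 9 genes. ASCL2 was 38.1, 41.8 and 53.4 CPM in untreated AID-GANP cells and 13.5, 18.1 and 20.1 CPM after 3 h of auxin. RNF43 was 97.2, 126 and 130 CPM against 43.4, 56.4 and 54.1 CPM. SP5 was 9.45, 12.0 and 12.5 CPM against 5.75, 5.35 and 7.25 CPM. All 3 genes fell with no overlap between groups, by -1.38 ± 0.153 (adjusted p = 9.02e-05), -1.21 ± 0.122 (adjusted p = 4.69e-05) and -0.90 ± 0.142 (adjusted p = 0.000923) on the log2 scale. AXIN2 went the other way, from 405, 508 and 471 CPM to 665, 711 and 755 CPM. It rose by 0.61 ± 0.089 on the log2 scale (adjusted p = 0.000546), a fold of 1.53. Over all tested genes 11.5% were called lower and 3.93% higher, so that 3 of 9 lower and 1 of 9 higher stand beside a broad response. With no overlap between groups 24% of all tested genes lay lower and 21.6% higher. The other 5 members had log2 fold changes from -0.16 for NKD1 to 0.29 for LGR5, which was 37.6, 28.7 and 29.5 CPM after auxin against 27.8, 24.0 and 26.2 CPM untreated (adjusted p = 0.0815). The summed epithelial markers were 8728 to 9511 CPM after auxin and 7826 to 8241 CPM before it, and their part in the result was not tested.

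Loss of NXF1, the receptor that carries bulk mRNA through the pore, lowered RNF43 and SP5. RNF43 was 95.8, 110 and 103 CPM in untreated AID-NXF1 cells and 53.8, 55.0 and 57.9 CPM after 2 h of auxin, a fall to a fold of 0.531 (log2 fold change -0.91 ± 0.061, adjusted p = 5.09e-06). SP5, at low depth, was 4.4, 3.94 and 3.48 CPM against 2.74, 3.07 and 2.55 CPM (-0.52 ± 0.142, adjusted p = 0.0218), and its call was lost without any 1 of 4 libraries (-0.44 to -0.52). ZNRF3, the partner of RNF43, was 57.3, 58.7 and 54.2 CPM against 42.4, 46.7 and 45.5 CPM. Its groups did not overlap and its adjusted p was 0.000952, but the log2 fold change of -0.36 ± 0.0573 is a fold of 0.778 and it was not called. ASCL2 was 24.7, 22.3 and 17 CPM against 19.0, 18.8 and 11.6 CPM, which overlapped (-0.40, from -0.77 to -0.02, adjusted p = 0.119). With the replicate block the adjusted p was 4.58e-05 at -0.40, the fold still short of 0.7. Without untreated replicate 3 ASCL2 was called, at -0.54. The 2 members called are to be read against 5.93% of tested genes called lower, and 19% lay lower with no overlap.

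In parental DLD-1 cells no member was called after auxin. ASCL2 was 40.6, 48.3 and 56.2 CPM with auxin against 32.7, 40.8 and 56.2 CPM without, and the log2 fold change of 0.16 had an interval from -0.23 to 0.55. RNF43 was 105, 120 and 119 CPM against 90.5, 102 and 115 CPM, and AXIN2 was 476, 488 and 466 CPM against 478, 480 and 460 CPM. Of the 9 genes 0 were called, 0 had an unadjusted p under 0.05 and DESeq2 called 0, while 0.0561% of tested genes were called.

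**Figure D3:**
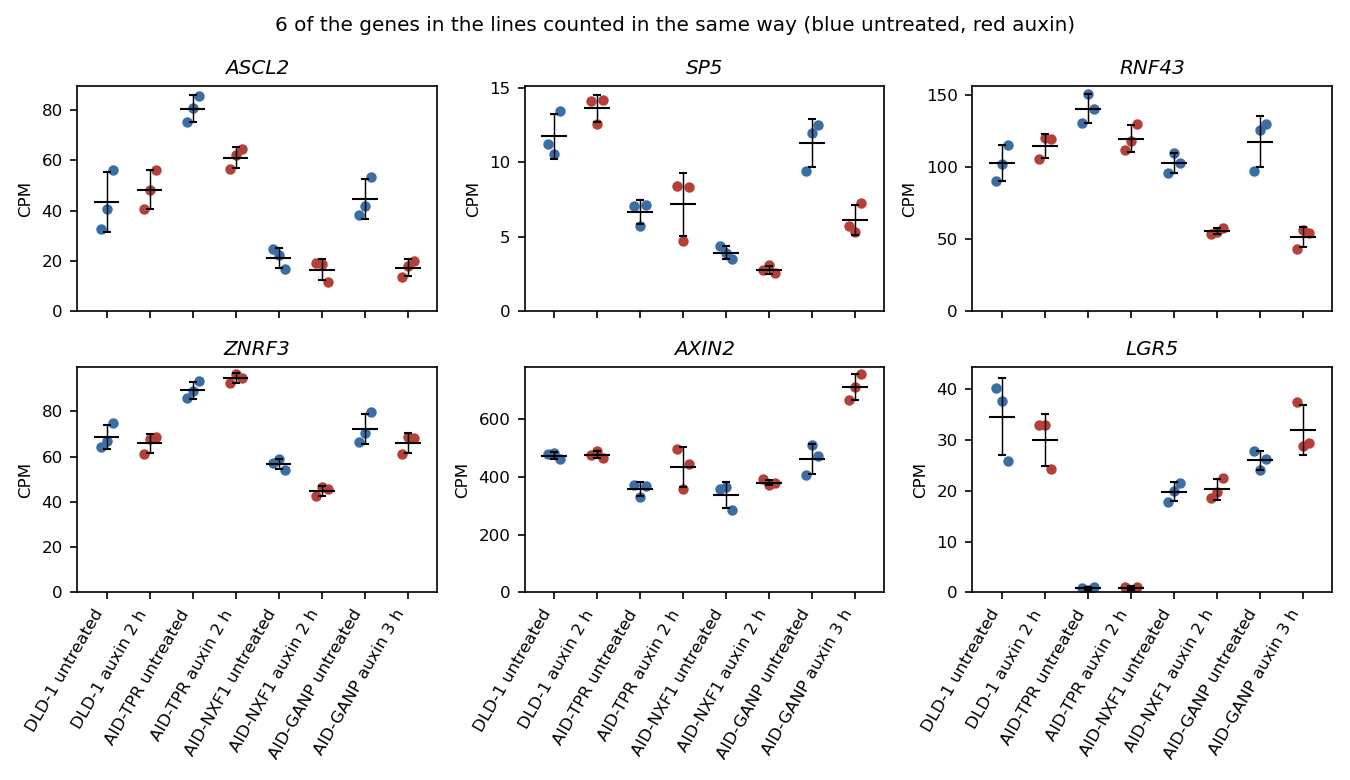
ASCL2, SP5, RNF43, ZNRF3, AXIN2 and LGR5 in CPM in untreated and auxin-treated libraries of the DLD-1, plain AID-TPR, AID-NXF1 and AID-GANP lines, with 1 point per library, a bar at the mean and a whisker of 1 SD to each side. In AID-GANP cells ASCL2, RNF43 and SP5 are lower and AXIN2 higher after auxin with no overlap, as are 24% and 21.6% of all tested genes. In DLD-1 cells all 6 genes overlap their control.

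The auxin effects were compared between lines with an interaction term, each effect being taken within its own line. Plain AID-TPR and DLD-1 cells were counted differently from NUP153-AID, NUP50-AID and RANGAP1-AID cells. The part of this in tests that mix these lines was not tested. AID-GANP and NUP50-AID cells had 3 h of auxin in these tests and the other lines 2 h. Where the 2 times are mixed, time and protein cannot be told apart. Against parental cells, the effect of GANP loss differed for ASCL2 (-1.53 ± 0.271 on the log2 scale, adjusted p = 0.0010), RNF43 (-1.37 ± 0.170, adjusted p = 5.33e-05), SP5 (-1.10 ± 0.187, adjusted p = 0.000736) and AXIN2 (0.61 ± 0.103, adjusted p = 0.000736), where 20.1% of all genes differed. The effect of NXF1 loss differed from that in parental cells for RNF43 (-1.08 ± 0.115, adjusted p = 2.72e-05), SP5 (-0.75 ± 0.174, adjusted p = 0.0108) and ZNRF3 (-0.31 ± 0.094, adjusted p = 0.0499), with 9.71% of all genes. The ZNRF3 difference kept its call only without AID-NXF1 untreated replicate 3, DLD-1 auxin replicate 1 or DLD-1 untreated replicate 3, among the fits that left out 1 library, and with the block ASCL2 also passed (-0.59, adjusted p = 1.61e-05). For TPR loss in the plain set against parental cells 0 of 9 genes passed, with 0.825% of all genes. The ASCL2 difference there was -0.57, from -1.04 to -0.11 (adjusted p = 0.381), 2 members had an unadjusted p under 0.05 and DESeq2 passed 0. With the replicate block 3 passed, ASCL2 (-0.59, adjusted p = 1.24e-05), AXIN2 (0.24, adjusted p = 0.0163) and RNF43 (-0.41, adjusted p = 0.000372), although the replicates of DLD-1 cells were not shown to be paired.

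The effect of TPR loss in the plain set minus that of GANP loss was 0.98 ± 0.189 for ASCL2 (adjusted p = 0.00663), 0.98 ± 0.159 for RNF43 (adjusted p = 0.00236) and 1.01 ± 0.271 for SP5 (adjusted p = 0.0407). The SP5 difference kept its call only without AID-GANP untreated replicate 1 or AID-TPR auxin replicate 2, among the fits that left out 1 library. In the old set the log2 fold changes at 2 h were -1.31 for ASCL2 and -0.68 for SP5, beside -1.38 and -0.90 after GANP loss, and the difference from that set was not tested. Over all genes 5.77% differed, and with the replicate number as a block 5 members passed in place of 3, AXIN2 (-0.35, adjusted p = 0.000369) and ZNRF3 (0.22, adjusted p = 0.0228) being added. Between TPR loss in the plain set and NXF1 loss, RNF43 (0.69 ± 0.105, adjusted p = 0.00393) and ZNRF3 (0.45 ± 0.082, adjusted p = 0.0111) differed, with 2.28% of all genes, whereas the ASCL2 difference was 0.00, from -0.44 to 0.45. The old set, at -1.31 for ASCL2 against -0.40 after NXF1 loss, was not tested against it. Between NXF1 and GANP loss 0 of 9 passed where 2.62% of all genes did (3 members at an unadjusted p under 0.05, 1 by DESeq2). The ASCL2 difference was 0.94, from 0.37 to 1.51 (adjusted p = 0.0829), and with the block it was 0.94 with an adjusted p of 1.66e-08, 5 members then passing. Auxin lasted 2 h in the one line and 3 h in the other, and time and protein cannot be told apart.

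NUP153 and NUP50, the other proteins of the basket, gave no call at the first time point. After NUP153 loss for 2 h ASCL2 was 80.0, 81.7 and 87.6 CPM against 100, 87.1 and 91.9 CPM untreated, a log2 fold change of -0.16 (adjusted p = 1). After NUP50 loss for 3 h it was 81.2, 116 and 89.8 CPM against 90.2, 120 and 110 CPM (-0.15, adjusted p = 0.950). Of the members 0 were called in either comparison, against 0.0225% and 0.18% of all tested genes, with 3 members at an unadjusted p under 0.05 and 0 by DESeq2 in each. The effect of TPR loss on ASCL2 in the plain set minus that of NUP153 loss was -0.25 (-0.48 to -0.02, adjusted p = 0.688), and minus that of NUP50 loss -0.26 (-0.63 to 0.12, adjusted p = 0.680). In both of these tests 0 of 9 members passed, 1 having an unadjusted p under 0.05 and DESeq2 passing 0, and 0.646% and 0.124% of all genes passed. With the block the difference from NUP153 loss had an adjusted p of 0.0489.

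At the later times ASCL2 stood higher after NUP153 loss. It was 174, 125 and 110 CPM at 8 h, above all 3 untreated libraries, with a log2 fold change of 0.55 ± 0.143 (0.23 to 0.87) and an adjusted p of 0.0929, so it was not called. DESeq2 called this 1 member, 4 had an unadjusted p under 0.05, and 1.32% of all genes were called by edgeR. Of all tested genes 10.6% lay higher with no overlap. Against the 2 h libraries of the same line ASCL2 rose by 0.70 ± 0.141 (adjusted p = 0.0256) and AXIN2 fell by 0.36 on the log2 scale (SE 0.070, adjusted p = 0.0238), where 3.07% of all genes differed. The ASCL2 call was lost with the replicate block (0.67, adjusted p = 0.0551) and without replicate 1 or 2 of the 2 h group or replicate 2 of the 8 h group. That of AXIN2 was lost without replicate 1 of the 2 h group or replicate 2 or 3 of the 8 h group, so that between 0 and 3 members passed with 1 library left out. AXIN2 was 332, 298 and 318 CPM at 2 h and 260, 235 and 252 CPM at 8 h. After NUP50 loss for 9 h ASCL2 was 102, 144 and 160 CPM (0.33, adjusted p = 0.275), 0 of 9 members were called (2 at an unadjusted p under 0.05, 0 by DESeq2) and 0.365% of all genes were. Between 9 h and 3 h in that line 0 of 9 passed (2 at an unadjusted p under 0.05, 0 by DESeq2), with 0.331% of all genes.

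Loss of RANGAP1, the GTPase-activating protein of Ran on which nuclear transport depends, moved other members. At 2 h 0 of 9 genes were called, against 0.545% of all genes, 1 having an unadjusted p under 0.05 and DESeq2 calling 0. That gene was ASCL2, at 69.5, 53.9 and 71.9 CPM against 85.6, 71.0 and 89.6 CPM, which overlapped (-0.34, from -0.62 to -0.07, adjusted p = 0.475; with the block 1.56e-05 and a fold still short of the threshold). Tested against the effect of TPR loss in the plain set, 0 of 9 members passed (0 at an unadjusted p under 0.05, 0 by DESeq2), with 0.298% of all genes. Tested against auxin in DLD-1 cells, 0 of 9 passed (1 at an unadjusted p under 0.05, 0 by DESeq2), with 0.893% of all genes, whereas with the block 3 passed, ASCL2 (-0.52, adjusted p = 2.02e-05), LGR5 (0.32, adjusted p = 0.0114) and RNF43 (-0.36, adjusted p = 0.000427). Here too the replicates of DLD-1 cells were not shown to be paired. At 8 h ASCL2 was 81.1, 78.4 and 87 CPM, with a log2 fold change of 0.00 against untreated cells.

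At 8 h of RANGAP1 loss NKD1 fell and LGR5 rose. NKD1 was 21.1, 16.3 and 23.2 CPM untreated, 19.4, 16.1 and 18.4 CPM at 2 h and 8.55, 9.17 and 9.71 CPM at 8 h, where no library reached the untreated ones. The log2 fold change was -1.15 ± 0.129 (-1.43 to -0.86, adjusted p = 0.000188). LGR5 was 23.8, 25.8 and 26.0 CPM untreated and 30.2, 35.1 and 36.3 CPM at 8 h (0.42 ± 0.086, adjusted p = 0.00524), and its call was lost without auxin 8 h replicate 3, at 0.37. Many genes moved at this time, 6.62% being called lower and 8.23% higher. With no overlap 20.3% of all tested genes lay lower and 21.9% higher. ZNRF3 was 73.3, 78.9 and 82.4 CPM against 63.3, 61.8 and 68.9 CPM, past the p threshold (0.0177) but not the fold. Against 2 h, NKD1 (-0.97 ± 0.103, adjusted p = 0.000281) and ZNRF3 (-0.34 ± 0.076, adjusted p = 0.0154) were lower at 8 h, the ZNRF3 call being lost without replicate 1 or 2 of the 8 h group, with 15.2% of all genes, and ASCL2 was at 0.34 (adjusted p = 0.0512). With the block the latter had an adjusted p of 1.61e-05 and LGR5 (0.31) of 0.000130. NKD1 was called in no other comparison. It lay lower with no overlap after NUP50 loss at 3 h (-0.29, adjusted p = 0.606) and 9 h (-0.31, adjusted p = 0.154). So did 6.56% and 10% of all tested genes. LGR5 was at 0.44 after 3 h of NUP50 loss (adjusted p = 0.572), with overlapping groups.

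**Figure D4:**
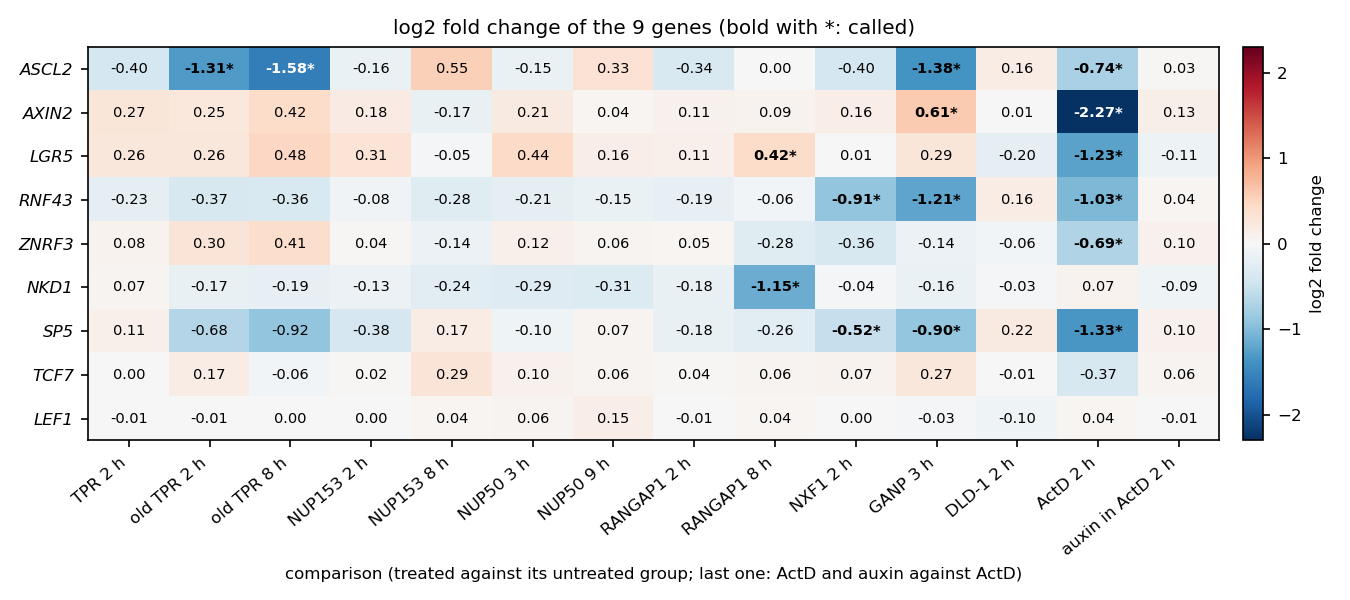
Log2 fold change, treated against control, of the 9 genes (rows) in the 14 comparisons (columns), with called values in bold and starred. ASCL2 is called lower in the old AID-TPR, AID-GANP and ActD comparisons, and TCF7 and LEF1 are called in none.

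ActD shows how the mRNAs stand once transcription is blocked. Of the 9 genes 6 were called lower after 2 h, against 12.3% of all tested genes, and the members' median log2 fold change was -0.74 beside 0.00 over all genes. AXIN2 was 386, 418 and 449 CPM in untreated old AID-TPR cells and 99.9, 66.2 and 94.3 CPM with ActD, and it fell most (-2.27 ± 0.16, adjusted p = 3.06e-05). SP5 was 10.9, 10.7 and 14.9 CPM against 6.26, 3.8 and 4.48 CPM (-1.33 ± 0.212, adjusted p = 0.0021). LGR5 was 3.21, 2.56 and 2.08 CPM against 1.28, 1.17 and 0.940 CPM (-1.23 ± 0.245, adjusted p = 0.00636), from 62 to 85 reads per library down to 29 to 51. RNF43 was 172, 168 and 179 CPM against 90.3, 65.3 and 97.5 CPM (-1.03 ± 0.146, adjusted p = 0.00115), and ZNRF3 97.2, 96.2 and 108 CPM against 61.8, 63.9 and 62.0 CPM (-0.69 ± 0.094, adjusted p = 0.000974). ASCL2 was 154, 145 and 191 CPM against 121, 105 and 67.6 CPM. It too fell with no overlap, by -0.74 ± 0.190 (adjusted p = 0.0177), and its call was lost without untreated replicate old3, at -0.62. Of all tested genes 21.5% lay lower with no overlap. The levels are relative to all other RNA of a library, since the counts carry no outside standard. The labels do not say which untreated set was grown with the ActD libraries, and the falls of ASCL2 and LGR5 hold against the old set alone. Untreated plain AID-TPR cells had a mean of 80.5 CPM for ASCL2 and 0.789 CPM for LGR5, below the ActD means of 97.9 and 1.13 CPM. For AXIN2, RNF43, ZNRF3 and SP5 the plain means of 357, 141, 89.4 and 6.65 CPM lay above the ActD means of 86.8, 84.3, 62.6 and 4.85 CPM. The plain set was counted differently from the ActD libraries, so it was not used in a test against them.

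NKD1, LEF1 and TCF7 were not called after ActD. NKD1 was 29.5, 27.8 and 29.0 CPM with ActD against 27.4, 25.5 and 29.0 CPM untreated (0.07), and LEF1 was 63.7, 64.4 and 59.3 CPM against 52.7, 61.6 and 66.9 CPM (0.04). Scaled by library size alone all log2 fold changes shifted by a median of -0.13, and these 2 values then turned negative. TCF7 was at -0.37 (adjusted p = 0.168). The summed epithelial markers were 7698 to 9471 CPM with ActD against 12479 to 14364 CPM in untreated old cells and 7922 to 8580 CPM in untreated plain cells, and 4 of the 9 were called lower, KRT8, CDX2, VIL1 and CDH17. Their part in the result was not tested.

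No member was called when auxin was added to ActD. ASCL2 was 134, 97.1 and 70.3 CPM with both agents against 121, 105 and 67.6 CPM with ActD alone (0.03, from -0.61 to 0.67), so that the libraries overlapped throughout. Of the 9 genes 0 were called, 0 had an unadjusted p under 0.05 and DESeq2 called 0, and over all genes edgeR called 0, or 0%, DESeq2 0, and 78 had an unadjusted p under 0.05. The effect of auxin on ASCL2 in the old set without ActD minus that with ActD was -1.35, from -2.17 to -0.53, with an adjusted p of 0.340. Of the members 0 passed (2 at an unadjusted p under 0.05, 0 by DESeq2), and 0.0225% of all genes did. With the block 2 passed, ASCL2 (-1.38, adjusted p = 0.0037) and SP5 (-0.81, adjusted p = 0.0488), and without the filter on low counts 1, ASCL2 (adjusted p = 1.95e-08). The replicates of old AID-TPR cells were not shown to be paired.

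**Figure D5:**
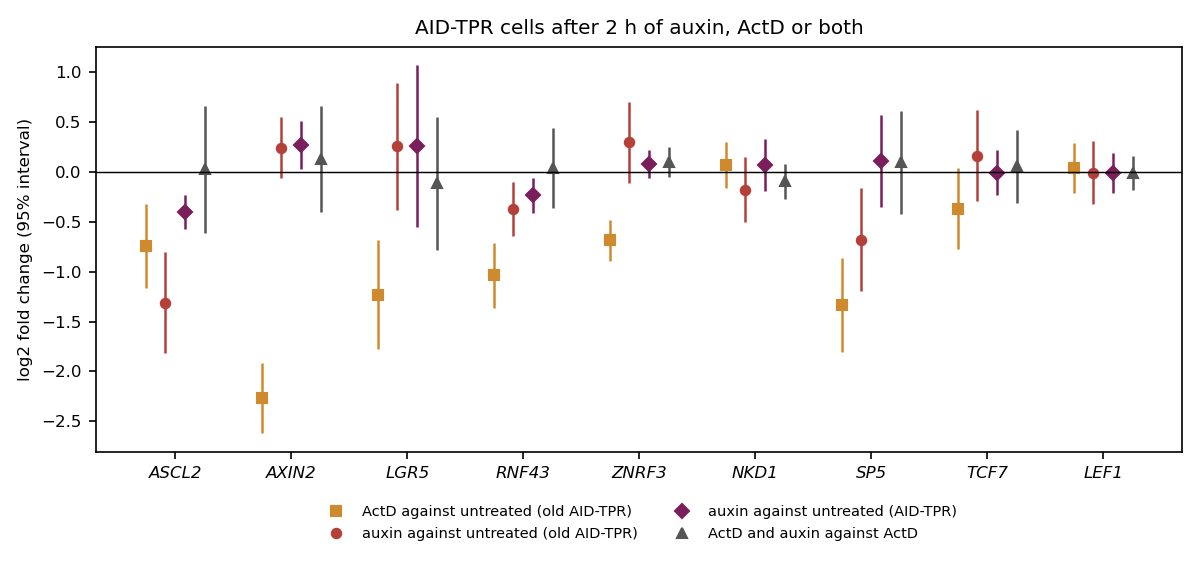
Log2 fold change of each of the 9 genes with its 95% interval in AID-TPR cells, for ActD against untreated, auxin against untreated in both label sets, and ActD with auxin against ActD alone. The intervals of the last comparison cross 0 for all 9 genes, while those for ActD alone lie below 0 for the 6 genes called.

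ASCL2 and SP5, the 2 members with 2 exons, belong to a class that was called lower more often in several of these comparisons. Only protein-coding genes were counted for this. Of the 875 tested protein-coding genes with 2 exons or fewer, 5.14% were called lower after 2 h of TPR loss in the plain set. Of the 12262 with more exons 0.171% were. The shares were 4% and 0.139% in the old set at 2 h, 14.9% and 1.77% at 8 h, 22.1% and 5.54% after NXF1 loss, 45.0% and 9.61% after GANP loss, and 27.5% and 10.5% after ActD. After 8 h they were 12.3% and 4.33% for RANGAP1 loss and 1.83% and 0.383% for NUP153 loss. For NUP50 loss at 9 h they were 1.49% and 0.0734%, and for auxin in DLD-1 cells 0.114% and 0.0652%. Higher calls were also more frequent in this class after 8 h of NUP153 loss (3.2% against 0.563%) and of RANGAP1 loss (10.5% against 9.26%). So they were after GANP loss (5.71%, 3.41%), in the old set at 2 h (0.457%, 0.163%) and after NUP50 loss at 9 h (0.343%, 0.253%). They were less frequent after NXF1 loss (1.14%, 1.45%) and ActD (3.09%, 11.9%). The same held for the old set at 8 h (0.686%, 1.65%) and the plain set (0%, 0.0816%). RNF43, with 10 exons, was called lower after NXF1 and GANP loss all the same. The part of exon number in the members' changes was not tested.

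Over the 60 libraries without ActD, each gene's log2 level was set relative to the untreated mean of its own line and compared with ASCL2. Of 11260 genes, the most similar were IRF2BP1 (Pearson r = 0.944, 1 exon), TYSND1 (0.926, 4 exons), ZBTB42 (0.924, 1 exon), FOXD1 (0.922, 1 exon) and ZNF775 (0.919, 3 exons). Among the members SP5 followed ASCL2 most closely (r = 0.848), then RNF43 (0.588), LEF1 (0.259), NKD1 (0.120), TCF7 (-0.01), ZNRF3 (-0.35), LGR5 (-0.42) and AXIN2 (-0.70). By Spearman rank correlation SP5 was at 0.684, RNF43 at 0.579, ZNRF3 at 0.017, LGR5 at -0.41 and AXIN2 at -0.46. The libraries of a line share their reference and their scaling, and these values are descriptions.

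The rest of the pathway was described by lists. Of ligands and receptors 27 of 42 were tested, of destruction complex genes 15 of 15, of nuclear factors 10 of 11, of secreted and intracellular antagonists 8 of 18, and of other Wnt targets 16 of 20. After 2 h of TPR loss in the plain set 1 receptor and 1 nuclear factor fell, where 0.404% of all tested genes were called lower. FZD7, a Frizzled receptor with 1 exon, went from 36.8 to 22.5 CPM in mean (-0.71, adjusted p = 0.00568), and PYGO2, which joins β-catenin to its coactivators, from 59.1 to 41.1 CPM (-0.53, adjusted p = 0.0322). In the old set FZD7 fell at 2 h (-1.33, adjusted p = 0.0102) with AMER1, a membrane anchor of APC (-1.27, adjusted p = 0.0164). There 0.309% of all tested genes were called lower. At 8 h FZD7 (-1.41), FZD2 (-1.92) and PYGO2 (-1.64) fell. Of the other targets at 8 h 2 rose, MYC (0.95, adjusted p = 0.0434) and ID2 (0.80), and BAMBI fell (-0.52), where 1.23% of all genes were called higher and 2.36% lower.

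GANP loss lowered 7 and raised 3 of the 27 ligands and receptors, beside 11.5% and 3.93% of all genes. The Frizzled genes FZD7 (-1.37), FZD5 (-1.34) and FZD1 (-1.15) fell, and so did the ligand WNT5B (-1.28). AMER1 fell from 13.1 to 2.80 CPM (-2.23) and PYGO2 from 57.0 to 24.3 CPM (-1.24). Of the 16 other targets MSX1 (-1.45), SOX4 (-0.95), BAMBI (-0.70) and EPHB3 fell and PROX1 rose (0.65). NXF1 loss lowered 5 ligands and receptors and raised 0, beside 5.93% and 2.18% of all genes, again with FZD7 (-0.89), AMER1 (-1.19) and PYGO2 (-0.73). Of the other targets EPHB3 (-0.79) and BAMBI (-0.66) fell after NXF1 loss and PROX1 (0.48) rose. RANGAP1 loss for 8 h gave 4 lower and 4 higher ligands and receptors, beside 6.62% and 8.23% of all genes, among them FZD2 (-0.85) and FZD6 (0.57), with TCF7L2, the main TCF of colon cells, lower (-0.57) and its corepressor TLE4 higher (0.55). TNKS (0.50), AMER1 (0.49) and BAMBI (0.46) were also called higher at 8 h, as were the markers CDX2 (1.00) and CDH17 (0.54), and DACT1 (-0.77) was called lower. At 2 h of RANGAP1 loss TLE4 (0.51), ID2 (0.76) and CDX2 (0.65) were called higher, beside 0.438% of all genes.

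ActD lowered 11 and raised 2 of the 16 other targets, beside 12.3% and 8.79% of all genes, among them MYC (207 to 29.2 CPM, -2.83), BAMBI (-2.25), SOX9 (-1.78) and EPHB3 (-1.75), and the list's median was -0.94 beside 0.00 over all genes. CTNNB1, which encodes β-catenin itself, stood at 670 CPM and 944 CPM with ActD and was called higher (0.49, adjusted p = 0.00485). The nuclear factors BCL9L (-1.38), TCF7L2 (-1.19), TLE3 (-1.10) and TLE1 (-0.75) were lower. These comparisons share the untreated old AID-TPR libraries with those of TPR loss in the old set.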

How the data were processed

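Total RNA was depleted of ribosomal RNA with Ribo-Zero Gold and sequenced in pairs on an Illumina HiSeq. The authors made the files with CASAVA 1.8.2, STAR (2.6.1c in the submitters' processing notes) and featureCounts (1.5.2 in the notes) on GRCh38 with Ensembl 87; the paper gives other versions of the last 2 tools, and the strand and overlap settings are not given in the sources used here. The values are whole-number counts of reads per gene, deposited without normalization.

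Genes with over 1 CPM in more than 5% of the 60 libraries without ActD were tested (17812), with edgeR 4.0.16 quasi-likelihood on TMM-scaled counts, R 4.3.3, and Benjamini-Hochberg adjustment over all of them. Each comparison used the libraries of its own groups. A gene was called past 2 thresholds together, 0.05 for the adjusted p and 1.3 upward or 0.7 downward for the fold, and in the tagged lines without ActD the 10 genes that auxin changed in parental cells were left out of the calls. Differences between lines or times needed the adjusted p alone. DESeq2 1.42.0 was an alternative. Symbols, coordinates and exons came from GENCODE 44 (56948 identifiers matched, 1103 did not). Depth sets the counting error, and p-values measure the spread between 3 libraries, which the study calls biological replicates. The statistics were tested on simulated data.

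Same-numbered libraries deviated together (every correlation of deviations over 0.1 across 3 pairs) in 7 of 13 comparisons: TPR 2 h, NUP153 2 h, RANGAP1 2 h and 8 h, NXF1, GANP and auxin in ActD; the numbers come from the labels, and ActD against untreated could not be paired. Whether the 2 auxin times of a line pair with each other was not checked. The 9 members were named in every comparison. Genes of the other lists were named from up to 4 called genes per list, with the largest change and a mean of at least 50 counts. Not every called gene of these lists is named or counted in the text. EPHB3 after GANP loss was named after its value was seen. Members and lists were chosen with earlier results of these data known.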

Additional observations from a re-analysis of the deposited data

Results flagged for a closer look

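In 12 cases a member's auxin effect differed between a pair of lines by the interaction test of edgeR (adjusted p under 0.05), each value being the log2 fold change in the first line minus that in the second. TPR loss here is that in the plain AID-TPR set. GANP loss was at 3 h and the other effects at 2 h, so time and protein cannot be told apart in its differences. Between TPR loss at 2 h and NXF1 loss at 2 h the differences were 0.69 for RNF43 and 0.45 for ZNRF3. Between TPR loss at 2 h and GANP loss at 3 h they were 0.98 for ASCL2, 0.98 for RNF43 and 1.01 for SP5. In the old set the log2 fold changes were -1.31 for ASCL2 and -0.68 for SP5, and their difference from GANP loss was not tested. Between NXF1 loss and auxin in parental DLD-1 cells they were -1.08 for RNF43, -0.31 for ZNRF3 and -0.75 for SP5, and between GANP loss and parental cells -1.53 for ASCL2, 0.61 for AXIN2, -1.37 for RNF43 and -1.10 for SP5.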

How the results depend on the processing

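Of 29 counts of members past the threshold, 14 stayed within 1.5 times their value under every alternative tried and 15 did not, and of 1503 alternative values of single members 0 reversed a called direction. A reversal needed a call in the main or the alternative fit, so values uncalled in both could not count as one. Uncalled values did change sign, as for 2 members after ActD scaled by library size alone. With all 60 libraries in one fit, the old AID-TPR set gave 2 members at 2 h (ASCL2 and SP5) and 4 at 8 h (AXIN2 and ZNRF3 added), and RANGAP1 loss at 8 h and NXF1 loss gave 1 each. Scaled by library size alone, the old set gave 0 at 2 h and 2 at 8 h, and NXF1 against GANP loss gave 1. By DESeq2 the counts were 2 for the old set at 8 h, 1 for NUP153 loss at 8 h, 1 for NXF1 against GANP loss and 4 for 8 h against 2 h of RANGAP1 loss. Without the filter on low counts they were 3 for the old set at 8 h, 1 for NUP153 loss at 8 h, 1 for NUP50 loss at 3 h, 2 for TPR loss against parental cells, 2 for NXF1 against GANP loss, 1 for RANGAP1 loss against parental cells, 1 for the old set without against with ActD, 1 for 9 h against 3 h of NUP50 loss and 4 for 8 h against 2 h of RANGAP1 loss.

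With the replicate number as a block the counts were 2 for the old set at 8 h (ASCL2 and SP5), 1 for NUP50 loss at 3 h (LGR5), 1 for TPR against NUP153 loss, 5 for TPR against GANP loss, 3 for TPR loss against parental cells, 5 for NXF1 against GANP loss, 3 for RANGAP1 loss against parental cells, 2 for the old set without against with ActD, 1 for 8 h against 2 h of NUP153 loss, 3 for 9 h against 3 h of NUP50 loss and 4 for 8 h against 2 h of RANGAP1 loss; the block moved no other count by over 1.5 times. Same-numbered replicates were not shown to be paired in the old set, after NUP153 loss at 8 h, after NUP50 loss or in DLD-1 cells. The prior degrees of freedom of edgeR were between 3.45 and 8.02 as reported. With the block they ran from 6.55 to 89.2, and were infinite in 1 comparison, GANP loss. Without the filter they were infinite in 12 of 14 comparisons and 23.6 and 53.6 in the others. Where they are infinite each gene takes the spread of the trend.

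Leaving out 1 library at a time, the counts ran from 0 to 1 for the old set at 2 h, 0 to 4 at 8 h, 1 to 2 for RANGAP1 loss at 8 h, 1 to 3 for NXF1 loss, 5 to 6 for ActD, 2 to 3 for TPR against NXF1 loss, 2 to 3 for TPR against GANP loss, 0 to 1 for NXF1 against GANP loss, 2 to 3 for NXF1 loss against parental cells, 4 to 5 for GANP loss against parental cells, 0 to 3 for 8 h against 2 h of NUP153 loss and 1 to 3 for 8 h against 2 h of RANGAP1 loss. The cause of these changes was not tested. LGR5 in AID-TPR cells and SP5 in AID-NXF1 cells rest on few reads.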
